A study of Mus musculus with 8 samples.

Results

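The 10 genes described here are members of the SOX family that lie outside the set of factors used for reprogramming: *Sox4*, *Sox11* and *Sox12* (SOXC), *Sox5*, *Sox6* and *Sox13* (SOXD), *Sox8* and *Sox9* (SOXE), *Sox21* (SOXB2) and *Sox15* (SOXG). They were chosen by name, and each locus was taken as the annotated gene body with 50 kb to each side, in mm10 coordinates. A peak belonged to a locus when it overlapped this window by at least 1 bp. The 10 genes are part of 21938 protein-coding genes. Their windows held 81 of 56514 peaks in mouse embryonic fibroblasts (MEFs), 72 of 36219 and 71 of 35226 peaks on days 5 and 10 of reprogramming, and 73 of 48486 peaks in embryonic stem cells (ESCs). After merging across cell states, these peaks made up 150 of 101701 accessible regions.

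Open chromatin was profiled by ATAC-seq, a transposase assay that tags accessible DNA, in 8 libraries of mouse cells, 2 for each of 4 groups. MEFs, the starting cells, came from OG2 mice, which carry a reporter transgene under Pou5f1 sequence. The day 5 and day 10 groups were such MEFs after retroviral delivery of Pou5f1 (OCT4), Sox2, Klf4 and Myc (OSKM), together with a control vector that carries only FLAG, in medium with vitamin C at 50 µg/ml. ESCs, the pluripotent reference, were labelled as OG2 for 1 library and as C57Bl6J for the other. Every group was deposited as a single peak list that joins its 2 libraries. No list could be compared with a replicate, so differences between lists carry no test, and 95% Wilson intervals given for shares cover counting error only. Day 5 and day 10 cultures were whole populations, in which few open cells and weak opening in many cells cannot be told apart. The lists differed in length, and the sequencing depth behind them is unknown.

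SOX proteins bind the minor groove of DNA through a high mobility group (HMG) box and bend it, often beside a partner factor. SOXC proteins act in neural and mesenchymal progenitors, SOXE proteins in neural crest, gonad and cartilage, and SOXB2 proteins repress targets of the SOXB1 activators to which SOX2 belongs. SOX5 and SOX6 lack an activation domain of their own and act beside SOX9 in cartilage. Marker genes of the 2 end states were checked first. A start site was under a peak at 7, 4, 3 and 1 of 7 fibroblast genes and at 2, 2, 2 and 6 of 7 ESC genes, with the lists ordered as MEFs, day 5, day 10 and ESCs here and wherever 4 values follow each other.

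Peaks were first counted per locus in each cell state. Every one of the 10 loci held at least 1 peak in every list, where 86.9%, 84.2%, 82.8% and 89.7% of all protein-coding genes did so. The 10 loci together held 3.12, 2.77, 2.73 and 2.81 peaks per 100 kb. The whole genome held 2.07, 1.33, 1.29 and 1.78 peaks per 100 kb. Per 10000 listed peaks the loci took 14.3, 19.9, 20.2 and 15.1. The counts of 81, 72, 71 and 73 depended on list length, since with as many top peaks in each list as the shortest list holds they were 43, 69, 71 and 57, and the order of MEFs and the infected cultures turned. With −log10 q of at least 3 they were 49, 56, 47 and 49. Much of each count came from *Sox5* and *Sox6*, which are very long. Without them the counts were 43, 31, 36 and 46, with the lowest value at day 5 as in the gene-wide medians. The median member had 3.65, 2.79, 2.88 and 3.35 peaks per 100 kb, and the median protein-coding gene 3.46, 2.10, 2.34 and 3.12.

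**Figure D1:**
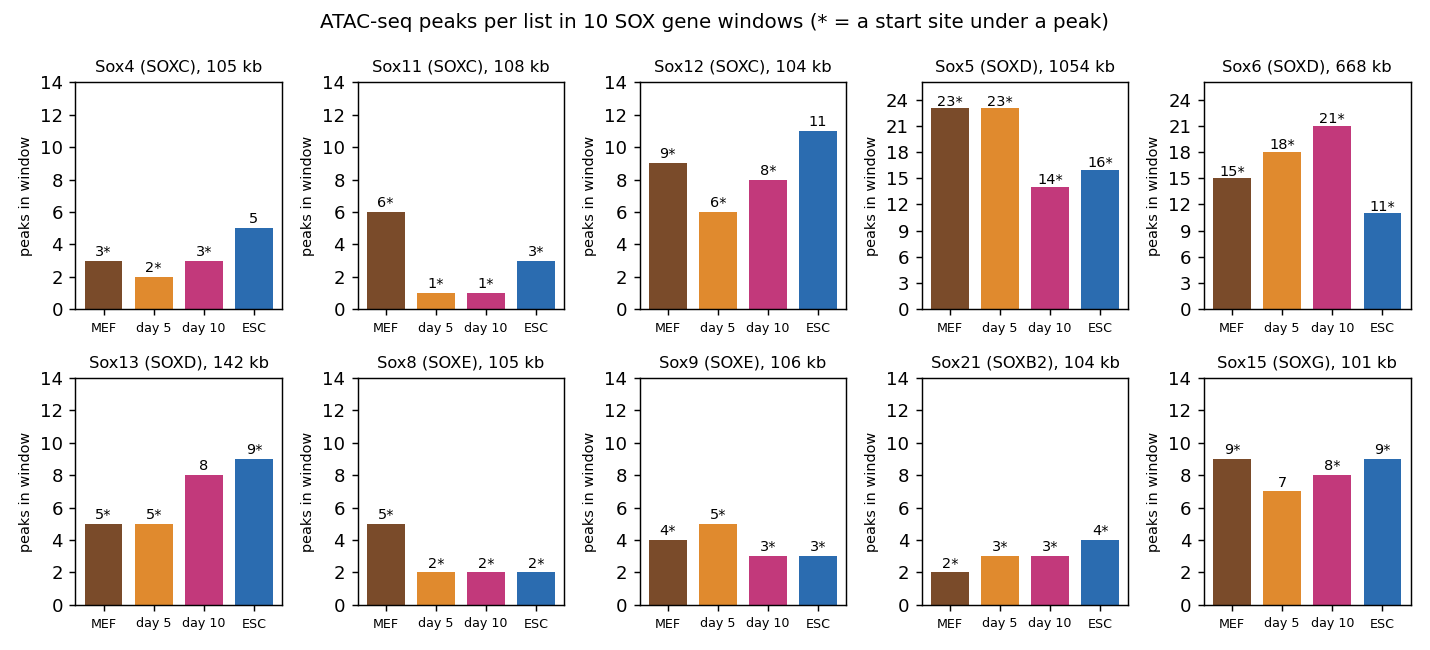
Number of ATAC-seq peaks in the window of each of the 10 SOX genes (y axis, peaks; x axis, the 4 peak lists, 1 list per group and so no error bars), with an asterisk where an annotated start site of the gene lay under a peak. *Sox5* and *Sox6* have their own y scale. *Sox6* had 15 peaks in MEFs, 21 at day 10 and 11 in ESCs, and *Sox11* went from 6 in MEFs to 1 on both days.

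More peaks in MEFs than in ESCs were found at 5 of the 10 loci (*Sox5*, *Sox6*, *Sox8*, *Sox9* and *Sox11*), against 42.2% of all protein-coding genes. More peaks in ESCs were found at 4 (*Sox4*, *Sox12*, *Sox13* and *Sox21*), against 35.6%, and *Sox15* had 9 in both. Shares of the members this close to the background do not set the family apart. The order also depended on how peaks were taken: with the strongest peaks of each list, as many as the shortest list holds, only *Sox11* still had more peaks in MEFs. From MEFs to day 5, 5 loci had fewer peaks (background 63.2%) and 3 had more (background 11.7%), the latter being *Sox6*, *Sox9* and *Sox21*. From day 5 to day 10, 5 loci had more (background 33.0%) and 2 had fewer (background 20.5%).

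Promoter accessibility was examined next, by asking whether any annotated start site of a gene lay under a peak. In MEFs this held for all 10 members (background 60.0%). At day 5 it held for 9 (52.1%), at day 10 for 9 (56.0%) and in ESCs for 8 (55.8%). The start sites of 6 members, *Sox5*, *Sox6*, *Sox8*, *Sox9*, *Sox11* and *Sox21*, were under a peak in all 4 lists (46.8%). The start sites of *Sox4* and *Sox12* were under a peak in MEFs and not in ESCs (7.75%), and no member had the opposite pattern (3.54%). None of the members was without a peak over its start sites in every list, where 35.4% of genes were.

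Of the 4 missing calls, 3 lay beside a nearby peak. The ESC peak at *Sox4* ended 94 bp inside the gene, the ESC peak at *Sox12* began 195 bp upstream of its 5′ end, and the day 10 peak at *Sox13* ended 18 bp short of it. With peaks within 1 kb of a start site accepted, the counts were 10, 9, 10 and 10. *Sox15* at day 5 was the remaining exception, with its nearest peak 7014 bp away. The ranks of the promoter peaks covered nearly the whole lists, from 13.1% from the top at *Sox4* on day 10 to 98.7% at *Sox15* on day 10. At *Sox9* the start-site peak ranked 27.8%, 51.6%, 56.2% and 69.6% from the top. At *Sox21* it ranked 47.3% from the top in MEFs, 19.5% at day 5 and 14.4% in ESCs, and was number 7399 of 35226 peaks at day 10. The MEF list thus ranked the *Sox9* promoter higher than the *Sox21* promoter, and the other 3 lists ranked *Sox21* higher.

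The SOXC loci were short, and their distal peaks changed in different ways. *Sox4*, a single-exon gene on the minus strand (ENSMUSG00000076431.4, chr13:28948919-28953713), is active in many progenitors and in epithelial-to-mesenchymal transition. It had 3 peaks in MEFs, 2 and 3 on days 5 and 10, and 5 in ESCs. None of its 5 regions was MEF-specific (open in MEFs, closed in ESCs), and 2 were ESC-specific (the reverse). A region 35.3 kb upstream of the 5′ end, in no annotated gene, appeared at day 10 and was in ESCs the strongest *Sox4* peak, 20.3% from the top of the list with a fold enrichment of 4.48. At day 10 its peak ranked 56.2% from the top with a fold enrichment of 3.68. The 200 bp around the midpoint of the ESC peak, chr13:28988917-28989116 on the plus strand, are shown because they hold 2 copies of the octamer ATGCAAAT, the element bound by OCT4. At least 1 octamer was found in 2.19% of all regions in the genome. Capitals mark the octamers, 1 on each strand, at positions 2 to 9 and 53 to 60 from the 5′ end of the window.
Sox4 upstream region: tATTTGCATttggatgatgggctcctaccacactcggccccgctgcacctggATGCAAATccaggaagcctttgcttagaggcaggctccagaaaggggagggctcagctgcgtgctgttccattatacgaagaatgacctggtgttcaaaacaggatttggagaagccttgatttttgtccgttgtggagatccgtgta

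*Sox11*, also a single-exon gene (ENSMUSG00000063632.6, chr12:27334264-27342574, minus strand), is best known from neural progenitors. It had 6 peaks in MEFs, 1 and 1 on days 5 and 10, and 3 in ESCs. All 5 of its MEF-specific regions were without a peak on either day, and its 2 ESC-specific regions were open in ESCs only. The start-site region alone was kept in all 4 lists, ranking 31.4%, 37.6%, 15.0% and 67.6% from the top. Missing 5 of 5 is near the general share, as only 14.2% of all MEF-specific regions in the genome were open on day 5 and 14.8% on day 10. Of the 5 MEF-specific regions, the ones 32.5 kb and 47.9 kb upstream held the AP-1 sequence TGAGTCA in the 200 bp around the peak midpoint. AP-1 factors such as FOS and JUN bind this sequence. The windows are chr12:27375010-27375209 and chr12:27390369-27390568, plus strand, with AP-1 matches in capitals.
Sox11 upstream region at 32.5 kb: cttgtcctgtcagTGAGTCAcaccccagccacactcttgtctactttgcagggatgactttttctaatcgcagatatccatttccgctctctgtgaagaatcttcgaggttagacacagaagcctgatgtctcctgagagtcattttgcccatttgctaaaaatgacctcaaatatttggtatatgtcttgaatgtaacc
Sox11 upstream region at 47.9 kb: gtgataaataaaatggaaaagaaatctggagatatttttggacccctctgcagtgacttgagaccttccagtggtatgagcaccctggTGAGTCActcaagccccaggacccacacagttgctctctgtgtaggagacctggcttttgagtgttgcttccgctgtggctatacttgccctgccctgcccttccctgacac

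*Sox12* (ENSMUSG00000051817.8, chr2:152393611-152398063, minus strand), the third SOXC gene, lies in a gene-dense stretch with the start sites of 4 other protein-coding genes in its window. It had 9 peaks in MEFs, 6 and 8 on days 5 and 10, and 11 in ESCs. Of its 11 regions 8 were common to MEFs and ESCs, and all 8 had a peak at day 10. Its promoter region spanned 3422 bp, with a MEF peak of 3373 bp, a day 5 peak of 3141 bp and a day 10 peak of 3208 bp. In ESCs the region held 2 separate peaks, one of 1098 bp upstream of the 5′ end and one of 356 bp inside the gene, with the start sites between them. The strongest *Sox12* peak at day 5, at day 10 and in ESCs was a site 34.3 kb downstream of the 5′ end, at 2.62%, 3.61% and 2.53% from the top. In MEFs the same site ranked 19.9% from the top.

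The SOXD genes gave the largest number of peaks. *Sox5* (ENSMUSG00000041540.16, chr6:143828425-144781977, minus strand) and *Sox6* (ENSMUSG00000051910.13, chr7:115470872-116038796, minus strand) have gene bodies of 953553 bp and 567925 bp. *Sox5* had 23 peaks in MEFs, 23 and 14 on days 5 and 10, and 16 in ESCs. *Sox6* had 15, 18, 21 and 11. The 2 paralogues thus moved apart between day 5 and day 10, by 9 peaks down at *Sox5* and 3 up at *Sox6*. Among 230 protein-coding genes of at least 500 kb, a length chosen after these values were seen, 165 had fewer peaks at day 10 than at day 5 and 41 had more. At least as large a fall as at *Sox5* was found in 12 of them, and at least as large a rise as at *Sox6* in 19. Therefore *Sox5* went in the common direction for long genes and *Sox6* in the rarer one.

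Most of the peaks that *Sox5* had at day 5 and not at day 10 were in the lower part of the list. The 10 regions concerned had a median rank of 76.7% from the top of the day 5 list, with a median peak width of 501 bp, though 3 of them stood in the upper part, at 30.7%, 45.6% and 46.7%. The 13 *Sox5* regions open on both days had a median rank of 34.7% and a median width of 714 bp. Only 1 *Sox5* region was open at day 10 and not at day 5. Of the *Sox6* regions, 17 were open on both days, 1 at day 5 only and 4 at day 10 only among the days. In the higher-scoring 50% of each list, *Sox6* no longer gained peaks, with day 10 minus day 5 at -2, and with −log10 q of at least 3 the difference was 0. For *Sox5* the same difference was -9 and stayed negative in every alternative, from -10 to -1.

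Many regions of these 2 genes were open on the days alone. Regions with a day 5 or day 10 peak that both MEFs and ESCs lacked were called transient. *Sox5* held 14 of them and *Sox6* 11, which together were 25 of the 31 in all 10 windows. Per 100 kb this came to 1.33 at *Sox5* and 1.65 at *Sox6*, against 0.686 at the other 8 loci and 0.601 in the whole genome. The other loci were unlike each other, with 2.84 at *Sox9*, 1.41 at *Sox13* and 0.963 at *Sox21*, each from few regions. No transient region was found at *Sox4*, *Sox8*, *Sox11*, *Sox12* and *Sox15*. A high density was thus not particular to the 2 long genes. Of the 230 long genes, whose median was 0.667, as many or more transient regions per 100 kb were found at 9.57% for *Sox5* and 3.91% for *Sox6*. At *Sox6* 8 transient regions were open on both days and 3 at day 10 only, with none at day 5 only. At *Sox5* 5 were open on both days, 8 at day 5 only and 1 at day 10 only. Of these 25 regions, 21 lay in introns without touching an exon, 3 lay outside the gene bodies and 1 covered 263 bp of *Sox5* exon, 232 bp of them coding.

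**Figure D2:**
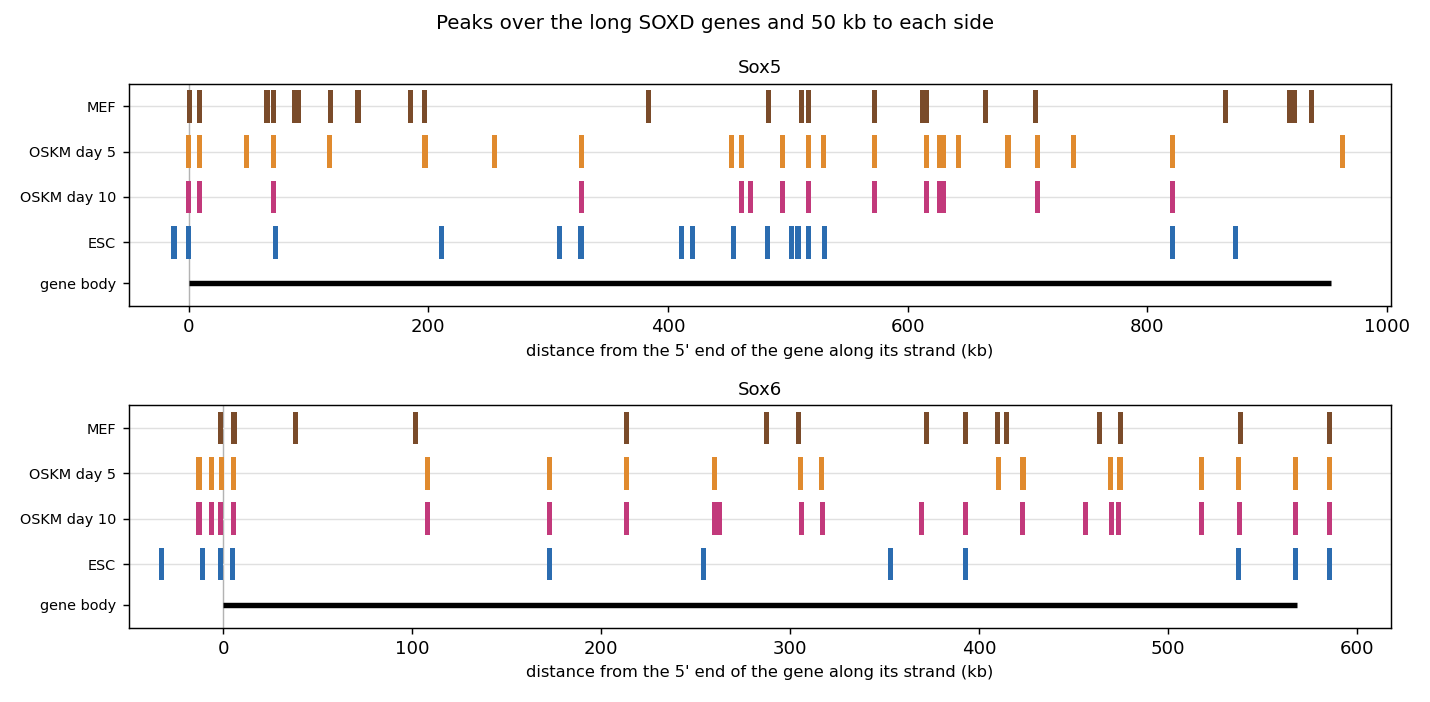
Positions of all peaks at *Sox5* and *Sox6* by distance from the 5′ end of the gene along its own strand (x axis, kb; negative values are upstream), 1 row per peak list, with the gene body as a bar. Narrow peaks are drawn at a minimum width. Peaks spread along the whole length of both genes, with 23, 23, 14 and 16 at *Sox5* and 15, 18, 21 and 11 at *Sox6*.

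Transient peaks were among the strongest of these loci. At *Sox5* the highest-ranked day 5 peak was an intronic transient site 708.8 kb from the 5′ end, 7.77% from the top of the list. Close behind it was another, 629.9 kb from the 5′ end, at 8.21% from the top at day 5 and 29.04% at day 10. At *Sox6* the highest-ranked day 5 peak was an intronic transient site 108.1 kb from the 5′ end, 7.03% from the top at day 5 and 47.7% at day 10. A weaker transient region lay 6.42 kb upstream of *Sox6*, inside the neighbouring gene 1110004F10Rik, at 64.4% and 52.3% from the top. The widest transient region of the 10 windows, 1330 bp, lay 12.9 kb upstream of *Sox6* in the same gene, at 44.5% and 82.8% from the top. The widest MEF-specific region, 1934 bp, lay 304.9 kb into *Sox6* and held peaks in MEFs and on both days. They ranked 55.2% from the top in MEFs, 31.4% on day 5 and 24.2% on day 10. The day 10 peak, chr7:115732893-115733341, did not overlap the MEF peak, chr7:115733933-115734817, and the day 5 peak joined them. Windows of the intronic *Sox5* site (chr6:144151979-144152178) and of the upstream *Sox6* site (chr7:116045119-116045318) are printed from the plus strand because both hold a SOX sequence, CCATTGT or CCTTTGT on either strand. The *Sox6* window also holds an octamer. The *Sox5* window lies in the day 5 peak only, as the day 10 peak of that region, chr6:144152229-144152715, begins beyond it. Capitals mark the matches.
Sox5 intronic region: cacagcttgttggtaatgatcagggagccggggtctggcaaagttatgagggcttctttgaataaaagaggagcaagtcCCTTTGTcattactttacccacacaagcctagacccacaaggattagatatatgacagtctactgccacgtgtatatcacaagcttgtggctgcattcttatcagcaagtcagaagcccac
Sox6 upstream region: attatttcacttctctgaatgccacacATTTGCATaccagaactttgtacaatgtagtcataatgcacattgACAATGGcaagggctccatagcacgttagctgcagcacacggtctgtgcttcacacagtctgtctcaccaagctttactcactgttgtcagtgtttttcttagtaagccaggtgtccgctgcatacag

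Start sites inside the long genes did not behave alike. *Sox5* has 12 annotated start sites, of which 6, 6, 6 and 2 lay under a peak. The 2 near the 5′ end were open in all 4 lists. The other 4 lay in a MEF-specific region 572.1 kb into the gene (chr6:144209000-144210691), which ranked 41.0% from the top in MEFs, 97.1% at day 5 and 80.9% at day 10, and had no ESC peak. It thus stood near the bottom of both day lists. *Sox6* has 13 start sites, of which 2 lay under a peak in each list, though not the same 2. In MEFs, 1 lay near the 5′ end and 1 under a peak 213.3 kb into the gene. On both days and in ESCs, both lay near the 5′ end. The internal start site was 50 bp from a day 5 peak and 133 bp from a day 10 peak, and ESCs had no peak there. The outermost 5′ end of *Sox6* was under no peak in any list, with the nearest peak 872, 764, 814 and 805 bp upstream. That peak covered a start site of the neighbouring gene 1110004F10Rik in all 4 lists. A region 5.75 kb into *Sox6*, open in all 4 lists, held a start site of *Sox6os* on the other strand, which the MEF and day 5 peaks covered and the day 10 and ESC peaks did not.

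*Sox13* (ENSMUSG00000070643.11, chr1:133382303-133424377, minus strand), the shortest SOXD gene, is known from T cell development and shares its window with the start sites of *Ren1* and *Etnk2*. It had 5 peaks in MEFs, 5 and 8 on days 5 and 10, and 9 in ESCs. With 6 ESC-specific regions out of 13 it held 4.22 of them per 100 kb, against 1.06 in the whole genome. Of these 6, 3 already had a peak at day 10 and 1 at day 5. The one open on both days, in an intron 26.6 kb from the 5′ end, was the strongest *Sox13* peak at day 5 and in ESCs, at 16.3% and 10.4% from the top. The MEF list had no peak there.

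*Sox8* and *Sox9* encode SOXE activators. *Sox8* (ENSMUSG00000024176.10, chr17:25565892-25570686, minus strand) had 5 peaks in MEFs, 2 and 2 on days 5 and 10, and 2 in ESCs. The 3 that were found in MEFs alone lay 14.3, 19.1 and 30.5 kb downstream of the 5′ end. The other 2 sites were open in all 4 lists, namely the promoter, which also covered a start site of the antisense gene 2810468N07Rik, and a site 8.61 kb upstream over a start site of *Lmf1*. The latter was the strongest in MEFs, at 2.51% from the top, and ranked 36.6% at day 5, 9.31% at day 10 and 28.3% in ESCs. As a result, *Sox8* had the same pair of open sites in the infected cultures and in ESCs.

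*Sox9* (ENSMUSG00000000567.5, chr11:112782224-112787760, plus strand), the regulator of cartilage and testis development, had 4 peaks in MEFs, 5 and 3 on days 5 and 10, and 3 in ESCs. The MEF count includes a piece of 51 bp that belongs to the same replicate 1 peak as the promoter piece, and with such pieces counted once 4 members, without *Sox9*, had more peaks in MEFs than in ESCs. The promoter region also covered a start site of BC006965, a gene on the other strand. A site 29.02 kb downstream of the 5′ end was open in all 4 lists, ranking 73.9%, 32.3%, 29.04% and 32.3% from the top. Transient regions lay 12.3 kb upstream (day 5), 35.9 kb downstream (both days) and 44.3 kb downstream (day 5). They ranked 69.1%, 67.5% and 41.4% from the top of the day 5 list in this order, and the one open on both days ranked 82.8% at day 10. Known long-range *Sox9* enhancers lie far outside a window of 50 kb and were not examined.

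*Sox21* (ENSMUSG00000061517.8, chr14:118233232-118237030, minus strand) encodes a repressor in progenitor and pluripotent cells. It had 2 peaks in MEFs, 3 and 3 on days 5 and 10, and 4 in ESCs. Of its 6 regions, 1 was MEF-specific, 3 were ESC-specific, 1 was common and 1 was transient. The common region, over the *Sox21* promoter, also covered a start site of *Gm4675*, a noncoding gene on the other strand. An ESC-specific region 6.27 kb downstream of the 5′ end was already open on both days, and ranked 9.61% and 24.2% from the top of the day lists and 46.6% in ESCs. Among the 3 regions upstream, the outermost, 45.9 kb from the 5′ end, was open in ESCs alone, at 80.3% from the top. The site 24.8 kb upstream was open on both days, number 7236 of 36219 in the day 5 list and 52.3% from the top at day 10, and closed in MEFs and ESCs. The site 16.5 kb upstream covered another start site of *Gm4675* and was open in ESCs alone, at 20.3% from the top. These neighbours thus opened in different cell states, and both contain CCATTGT on the plus strand, shown in capitals in their windows, chr14:118261767-118261966 (transient) and chr14:118253453-118253652 (ESCs).
Sox21 transient region: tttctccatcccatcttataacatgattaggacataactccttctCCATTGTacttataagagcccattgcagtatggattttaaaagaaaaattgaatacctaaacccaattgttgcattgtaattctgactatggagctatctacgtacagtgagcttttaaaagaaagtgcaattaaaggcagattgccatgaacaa
Sox21 region in ESCs: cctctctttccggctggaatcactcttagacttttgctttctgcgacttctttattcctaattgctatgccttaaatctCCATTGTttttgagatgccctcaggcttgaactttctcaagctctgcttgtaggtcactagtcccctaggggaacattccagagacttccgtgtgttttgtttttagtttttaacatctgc

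*Sox15* (ENSMUSG00000041287.5, chr11:69655314-69656727, plus strand), the only SOXG gene and one expressed in ESCs, had 9 peaks in MEFs, 7 and 8 on days 5 and 10, and 9 in ESCs. Its window holds the start sites of 11 other protein-coding genes, and 8 of its 11 regions lay over start sites of other genes. The only *Sox15* region at its own start site ranked 84.1% from the top in MEFs and 98.7% at day 10, was absent at day 5, and ranked 58.4% in ESCs. The *Sox15* promoter thus stood low in the MEF and day 10 lists. Its sequence is set beside that of *Sox11*, whose promoter was open in all 4 lists. The *Sox15* stretch shown ends before the GENCODE start at 69655314, which was used for the peaks. Only the MEF and ESC lists had a peak over this stretch, and the day 10 peak did not reach it. The 250 bp upstream of the RefSeq start (GRCm38.p6) hold 17 CpG dinucleotides at *Sox11* (chr12:27342719-27342968, minus strand) and 5 at *Sox15* (chr11:69654787-69655036, plus strand), against a median of 6 over 32851 promoters. Openness, read here as at least 1 bp of the RefSeq promoter stretch under a peak, did not follow this count throughout the family. An internal *Sox6* promoter with 2 met this rule in MEFs and on both days. Its start site itself was under the MEF peak only, with the day 5 and day 10 peaks 50 and 133 bp away. The *Sox4* promoter with 11 did not meet the rule in ESCs, though an ESC peak ended 94 bp from the *Sox4* start site. CpG is in capitals, and each sequence runs 5′ to 3′ on the strand of its gene.
Sox11 promoter: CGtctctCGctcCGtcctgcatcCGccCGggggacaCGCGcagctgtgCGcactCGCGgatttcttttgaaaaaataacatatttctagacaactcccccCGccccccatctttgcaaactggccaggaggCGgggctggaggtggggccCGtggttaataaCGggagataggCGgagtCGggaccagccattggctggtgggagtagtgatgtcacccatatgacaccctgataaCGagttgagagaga
Sox15 promoter: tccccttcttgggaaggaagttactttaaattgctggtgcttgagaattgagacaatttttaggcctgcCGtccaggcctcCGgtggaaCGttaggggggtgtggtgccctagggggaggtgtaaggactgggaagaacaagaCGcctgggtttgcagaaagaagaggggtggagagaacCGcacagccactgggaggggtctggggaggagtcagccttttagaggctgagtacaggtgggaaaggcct

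**Figure D3:**
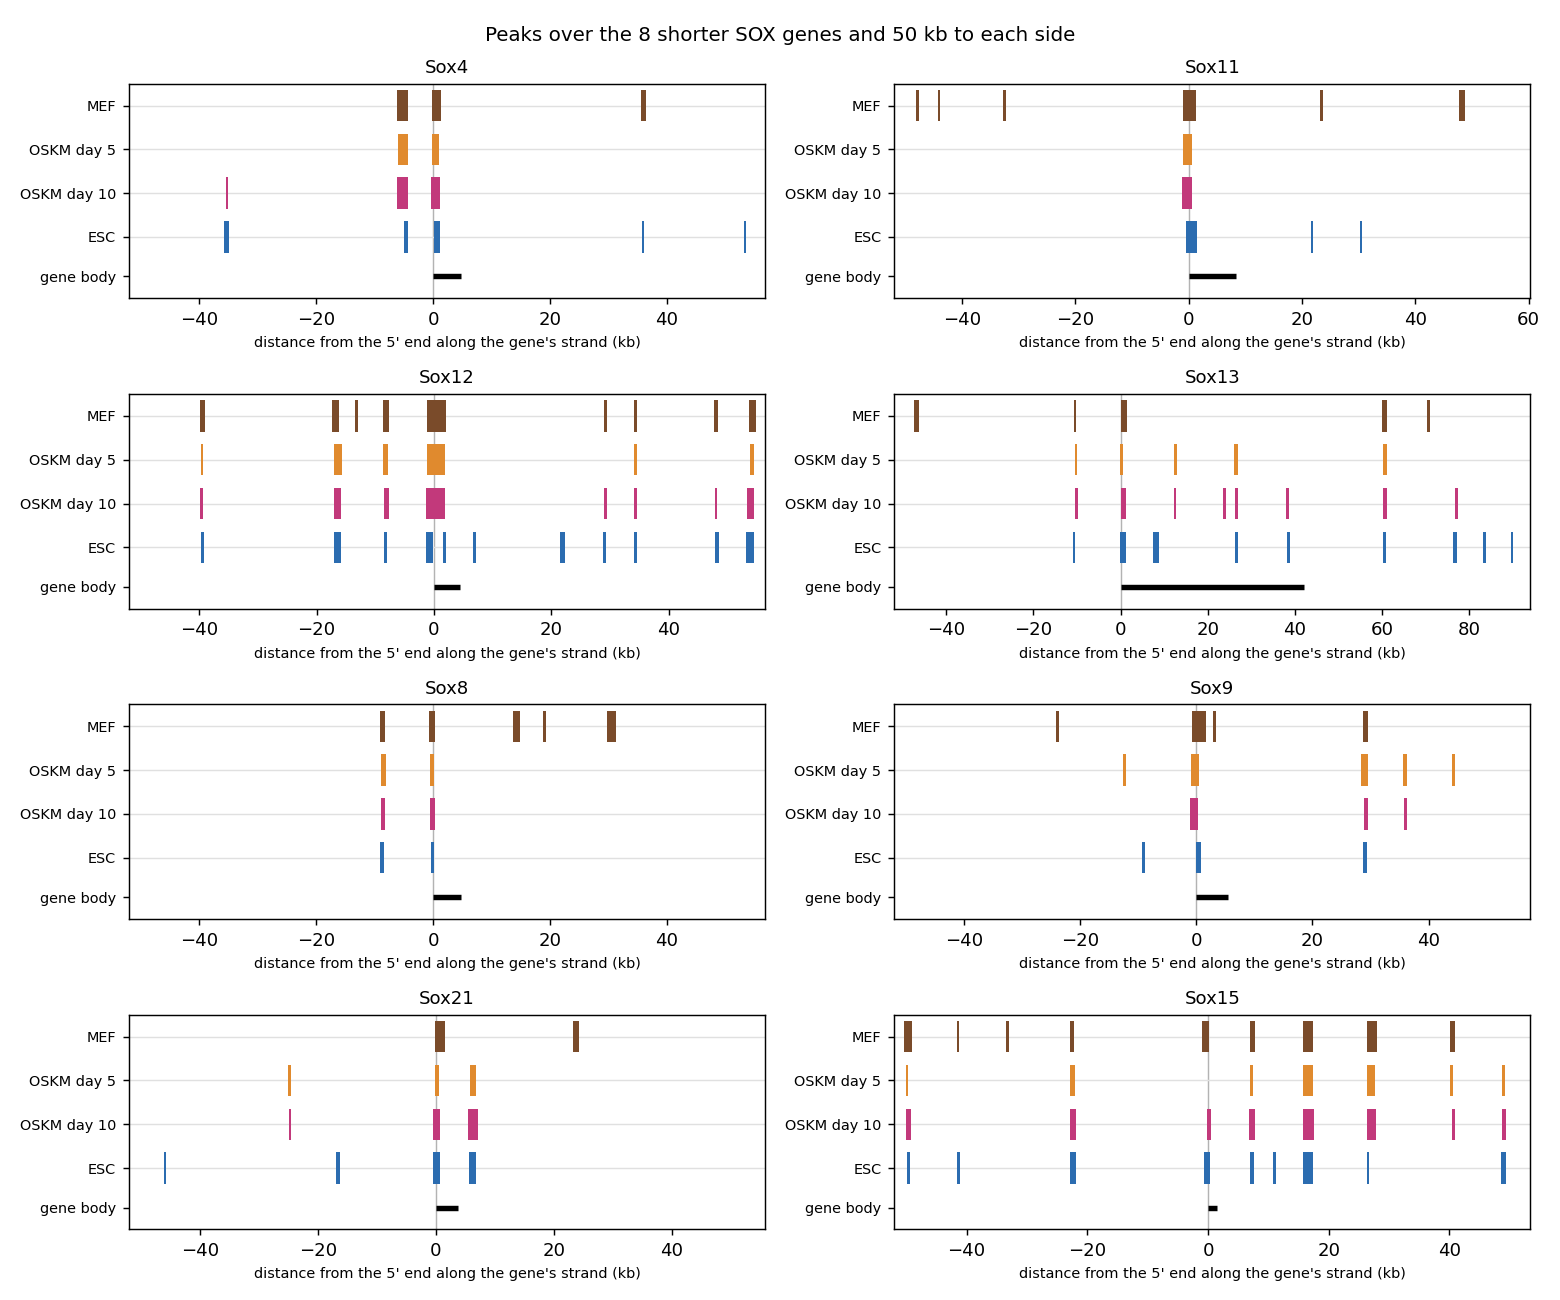
Positions of all peaks at the 8 shorter SOX loci by distance from the 5′ end along the strand of the gene (x axis, kb; negative values are upstream), 1 row per peak list, gene body as a bar, narrow peaks at a minimum width. *Sox11* keeps only its promoter peak on both days, and *Sox12* and *Sox15* have the most peaks, 9 each in MEFs.

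The regions were then sorted by the cell states in which they were open. Of the 150 regions, 47 were MEF-specific (31.3%, interval 24.5% to 39.1%), 38 ESC-specific (25.3%, 19.05% to 32.8%), 34 common (22.7%, 16.7% to 30.0%) and 31 transient (20.7%, 15.0% to 27.8%). Over the whole genome the shares were 36.4%, 28.4%, 19.1% and 16.1%, each within the interval of the 10 loci together. The pooled shares hid unlike loci. Common regions made up 40.3% (29.4% to 52.3%) at the 8 members other than *Sox5* and *Sox6*, and 10.4% (5.76% to 18.1%) at the SOXD loci. Transient regions made up 28.1% (20.1% to 37.8%) at the SOXD loci and 8.96% (4.17% to 18.2%) at the same 8 members. These sets overlap, since *Sox13*, with 13 regions, counts in both. Regions that share a locus are not independent, so the true uncertainty is wider. At least 1 region of the class was present at 9 members for MEF-specific (background 75.1%), 9 for ESC-specific (75.8%), 10 for common (80.1%) and 5 for transient regions (47.8%). Common regions were wide, with a median of 1215.5 bp, and 10 of the 34 covered a start site of the member. None of the 31 transient regions covered a start site of any gene.

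**Figure D4:**
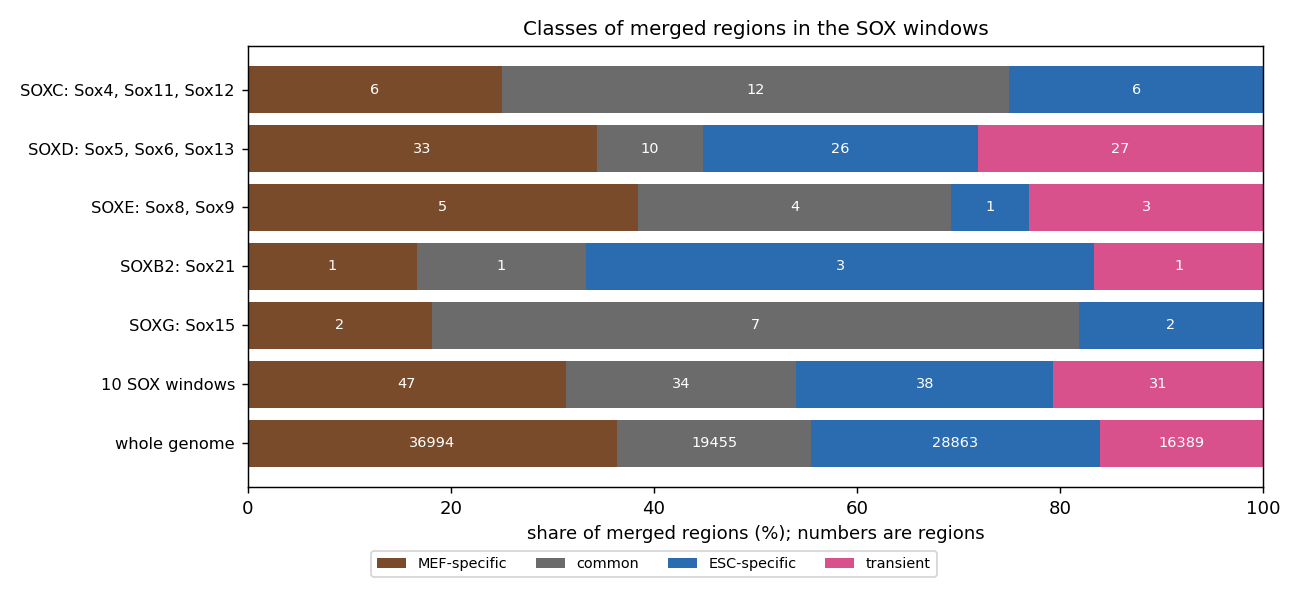
Share of merged regions in each class (x axis, percent) for the 5 SOX subgroups, the 10 windows together and the whole genome (y axis). SOXC has no transient region, and the 10 windows together (31.3% MEF-specific, 25.3% ESC-specific, 22.7% common, 20.7% transient) are near the genome (36.4%, 28.4%, 19.1%, 16.1%).

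The timing of loss and gain was followed through these classes. Of the 47 MEF-specific regions, 10 were still open at day 5 (21.3%, interval 11.99% to 34.9%) and 8 on day 10 (17.0%, 8.89% to 30.1%), while the whole genome had 14.2% and 14.8%. A peak on either day was found in 9 of 31 MEF-specific regions of *Sox5* and *Sox6* and in 1 of 16 at the other 8 loci (*Sox15*), a difference that was not tested. Of the 38 ESC-specific regions, 8 were open at day 5 (21.1%, 11.1% to 36.3%) and 10 at day 10 (26.3%, 15.0% to 42.0%). The genome-wide shares, 10.7% and 12.6%, were just below the lower bounds, which take the regions of 1 locus as independent. Common regions were mostly kept, with 28 of 34 open on day 5 (82.4%, 66.5% to 91.7%) and 32 on day 10 (94.1%, 80.9% to 98.4%), where the genome had 76.0% and 79.9%. For day 10 the genome share was again just below the lower bound, with the same limit on independence.

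Motif matches on either strand were searched in a 200 bp window, centred on the widest peak that a region had. The sequences were CCATTGT or CCTTTGT (SOX), ATGCAAAT (octamer), TGAGTCA or TGACTCA (AP-1, which are each other's reverse complement) and CCCCACCC or CCCCGCCC (KLF). A SOX sequence was in 8 of 31 transient regions (25.8%, interval 13.7% to 43.2%), against 15.5% of all transient regions in the genome, a value within the interval. The AP-1 sequence was in none of the 31 (upper limit 11.03%), against 6.75%. Of the MEF-specific regions 9 of 47 held it (19.1%, 10.4% to 32.5%), against 23.0%, and of these 7 were in *Sox5* and 2 in *Sox11*. Among ESC-specific regions 5 of 38 held a SOX sequence (13.2%, 5.75% to 27.3%), against 14.5%. The octamer was in 4 of 150 regions (2.67%, 1.04% to 6.66%), against 2.19%, and in 1 of 38 ESC-specific ones (2.63%), against 3.18%. A KLF sequence was in 9 of 150 (6.00%, 3.19% to 11.01%), against 7.62%. In none of these cases did the SOX loci depart from their class beyond counting error. Mean GC content was 60.1% in common and 42.4% in transient windows.

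For comparison, the other 10 SOX genes (Sox1, Sox2, Sox3, Sox7, Sox10, Sox14, Sox17, Sox18, Sox30 and Sry) had 26 peaks in MEFs, 12 and 17 on days 5 and 10, and 32 in ESCs. These counts are not comparable with those of the members directly, as the windows covered 1075.5 kb together, against 2596.7 kb. Per 100 kb the other SOX genes held 2.42, 1.12, 1.58 and 2.98 peaks, against 3.12, 2.77, 2.73 and 2.81 at the members. In ESCs the other SOX genes thus had the higher density. A start site was under a peak at 2, 1, 1 and 4 of the other 10, against 10, 9, 9 and 8 of the 10 members. The number of genes with an open start site was higher among the members in every list. This difference has no test, since the members are not replicates. The 7 cartilage genes Col2a1, Acan, Col9a1, Col11a2, Matn1, Hapln1 and Comp are known to be activated by SOX9, SOX5 and SOX6. Their windows held 30, 19, 22 and 27 peaks. In each list 2 of 7 had an open start site, though not the same 2. They were Col2a1 and Hapln1 in MEFs and on both days, and Acan and Hapln1 in ESCs.

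The peak density of each member was also matched to that of the other 19 SOX genes. The measure was the sum over the 4 lists of the absolute differences in peaks per 100 kb, with the smallest sum taken as most alike. It compares levels of density and not the direction of change between lists. *Sox5* and *Sox6*, which have the longest windows, were nearest to each other (2.52), though they moved apart from day 5 to day 10. *Sox12* and *Sox15* were also nearest to each other (3.30), and their windows are both gene-dense. *Sox21* (2.06) and *Sox4* (2.76) were closest to *Sox2*, *Sox9* (2.43) and *Sox8* (3.58) to the third SOXE gene, *Sox10*, *Sox11* (3.600) to *Sox8*, and *Sox13* (4.11) to *Sox18*. These sums rest on 4 lists each and on few peaks.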

How the data were processed

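ATAC-seq peak lists of MEFs, OSKM day 5, OSKM day 10 and ESCs were used, 1 list for the 2 libraries of each group, grouped by sample titles. The authors aligned reads to mm10 (Bowtie2 version 2.2.0 per the labels, which the methods give differently) and removed reads of low mapping quality, for which labels and methods state different cutoffs. The peak caller is not given in the sources used here. The authors deposited for each peak a score (10 times the −log10 q-value, decimals dropped), a fold enrichment (ratio over background), and −log10 of the p-value and of the q-value. Interval names are those of replicate 1 peaks, so intervals look like overlaps with replicate 2, and score and fold then describe the whole replicate 1 peak. Ranks are within a list. The depth is unknown, which limits comparison of counts between lists. Labels place ESCs on feeders, while the methods describe gelatin and 2i/L medium, so culture and cell state cannot be told apart. No column belonged to other series (0 columns).

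Genes, start sites and exons came from GENCODE release 21 (GRCm38), and sequences from the RefSeq GRCm38.p6 assembly. The table of RefSeq promoters matched 9 of 10 members. Peaks within 400 bp were merged into regions, the study's own merging distance. No tests were run, as each group had 1 list. All 10 members were named. Regions eligible for naming were the one over the start site, the widest of each class in a window and those with a day 5 or day 10 peak, and only some of them are printed, chosen after their values were seen. Other regions are printed where a count is small. Members and lists were chosen with earlier results of these data known. Scripts were tested on simulated data. Python 3.11.15, pandas 2.3.3, numpy 2.4.6, pysam 0.24.0 and matplotlib 3.10.9 were used. Other windows, thresholds and merging distances were tried.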

Additional observations from a re-analysis of the deposited data

How the results depend on the processing

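Of 100 values on counts of peaks, start sites, classes and members recomputed under other settings, 70 stayed within 1.5 times the value reported and 30 did not. Of 96 differences for single loci, 64 kept their direction, 17 fell to 0, 7 reversed, and at *Sox15*, reported at 0, 5 stayed at 0 and 3 did not. With windows of 20 kb, 3 members had more peaks in MEFs than in ESCs. With 50 kb around the 5′ end only, the lists gave 45, 36, 39 and 46 peaks (MEFs, day 5, day 10, ESCs), 17 MEF-specific, 17 ESC-specific and 9 transient regions, 3 members with more peaks in MEFs, and a MEF minus ESC difference of -1 at *Sox6*. With −log10 q of at least 3, MEFs gave 49 peaks and day 10 gave 47, ESCs had 5 open start sites, and there were 29 MEF-specific and 20 common regions and 3 members with more peaks in MEFs. With as many top peaks as the shortest list, MEFs gave 43 peaks, with 22 MEF-specific and 21 common regions. In this setting 1 member had more peaks in MEFs, and the differences were -2 at *Sox5* and -1 at *Sox9*. Transient regions then numbered 40, against 31 reported, and were the largest class, followed by 35 ESC-specific regions. With the higher-scoring 50% of each list, there were 37, 36, 30 and 39 peaks, 3, 5 and 4 open start sites (day 5, day 10, ESCs), and 22 MEF-specific, 23 ESC-specific, 15 common and 18 transient regions. *Sox4* then differed by 1, *Sox6* by -2, and *Sox6* from day 5 to day 10 by -2. With 100 kb windows *Sox9* differed by -1. These shifts follow from fewer peaks or another window, and no other cause was tested. Counting pieces of 1 peak once, and the *Sox5* and *Sox6* day comparison, were added after seeing the data. No paired analysis was possible because both numbered libraries of a group were deposited as a single list, and for the same reason no library was left out.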
